A study of Homo sapiens with 6 samples.

Results

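The ABHD genes encode proteins of the α/β hydrolase fold, a large group of serine hydrolases that cut lipids, lipid messengers and fatty acids bound to proteins. Of the 60655 genes in the count table of an IGF2BP3 RNA immunoprecipitation sequencing (RIP-seq) experiment, 10 members of this family were chosen by gene name: *ABHD2*, *ABHD3*, *ABHD4*, *ABHD5*, *ABHD6*, *ABHD10*, *ABHD11*, *ABHD12*, *ABHD13* and *ABHD17A*. *ABHD2* was selected on the same contrast that is described here, because its count was higher in the IGF2BP3 IP, so the members' values are a description and carry no test. In this experiment, RNA that came down with an antibody against IGF2BP3 (IGF2BP3 IP, 3 libraries) was compared with RNA that came down with a control antibody (IgG IP, 3 libraries). All 6 libraries were made from untreated wild-type WaGa cells, a single Merkel cell carcinoma (MCC) line, and the labels do not say whether replicates came from separate cultures, so errors measure the spread between libraries, which may be technical. No library of input RNA is used here, and a difference between the IPs cannot be told apart from one in background binding to the antibodies or beads.

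IGF2BP3 is an oncofetal RNA-binding protein that attaches to mRNAs through RNA recognition motifs and KH domains, favours CA-rich sequence, and is known for stabilising mRNAs and steering their translation. ABHD enzymes act on the same lipids that cells use as membrane parts, fuel and signals. ABHD2 and ABHD6 break down monoacylglycerols that act as endocannabinoids, ABHD12 removes lysophosphatidylserine, ABHD5 switches on the lipase of lipid droplets, and ABHD10 and ABHD17A take palmitate off proteins.

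Library totals ranged from 9758759 to 14886414 counts, and the 10 members together took 0.0555% to 0.0579% of the counts in each library. The 9 markers of MCC cells, such as *KRT20* and *ATOH1*, had 443 to 15857 counts in any library, whereas 13 markers of fibroblasts, leukocytes, keratinocytes, melanocytes and endothelium had 0 to 13. The deviations of both replicate 1 libraries from their group means correlated with each other (r = 0.568 across genes). Their negative r with the libraries numbered 2 and 3 (-0.415 to -0.364) follows largely from the centring. The deviations within a group sum to 0, so these values are no separate evidence. The members' fold changes are also given without the 2 replicate 1 libraries.

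The catalytic centre of the fold has a serine between glycines in a sharp turn called the nucleophile elbow, and 9 of the 10 members carry its motif. The coding sequence around this motif, read from the canonical GENCODE transcripts on GRCh38, is shown for each member because it shows at a glance which of them carries the serine. Capitals mark the 5 codons of the motif, a glycine, any residue, the serine, any residue and a glycine. Where more than 1 match occurred, the one nearest the end of the protein is shown.
ABHD2: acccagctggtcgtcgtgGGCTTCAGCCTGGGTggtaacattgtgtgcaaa
ABHD3: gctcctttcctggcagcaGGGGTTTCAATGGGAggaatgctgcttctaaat
ABHD4: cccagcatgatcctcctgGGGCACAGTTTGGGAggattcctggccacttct
ABHD5: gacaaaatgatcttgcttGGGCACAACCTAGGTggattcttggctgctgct
ABHD6: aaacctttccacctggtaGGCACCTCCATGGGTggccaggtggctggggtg
ABHD10: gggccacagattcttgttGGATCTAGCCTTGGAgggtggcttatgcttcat
ABHD11: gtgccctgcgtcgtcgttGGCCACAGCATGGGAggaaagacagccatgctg
ABHD12: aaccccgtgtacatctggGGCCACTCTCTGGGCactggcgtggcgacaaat
ABHD13: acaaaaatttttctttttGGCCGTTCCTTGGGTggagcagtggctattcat
ABHD17A: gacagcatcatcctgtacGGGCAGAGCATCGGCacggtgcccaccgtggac

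In *ABHD5*, the exception, an asparagine codon stood in the place of the serine, at codon 153 of 349, and ABHD5 is known as a coactivator and not as a lipase. In *ABHD2* the serine was at codon 207 of 425, and the 15 bases in capitals lie at chr15:89175886-89175900 on the plus strand.

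*ABHD2*, which encodes a membrane-bound monoacylglycerol lipase described in sperm as a receptor for progesterone, was the only member with a higher normalized count in all 3 IGF2BP3 IP libraries than in any IgG IP library. It had 191, 467 and 398 counts in IgG IP replicates 1 to 3 and 472, 711 and 592 counts in IGF2BP3 IP replicates 1 to 3. As normalized CPM (counts scaled to a common library size after TMM correction), its values were 20.7, 31.3 and 32.1 in the IgG IP against 39.6, 53.7 and 48.1 in the IGF2BP3 IP. The replicate 1 library was the lowest of its group in both IPs, and the groups did not overlap. The log2 fold change fitted with edgeR was 0.74 (SE 0.18, 95% interval 0.34 to 1.15, n = 3 against 3), a fold change of 1.67. Within pairs of libraries with the same number the log2 difference in CPM was 0.94, 0.78 and 0.58, and without replicate 1 of both groups the fitted log2 fold change was 0.69 (SE 0.09). Among the 14507 genes that passed the expression filter, 383 (2.64%) had a log2 fold change at least as high.

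None of the 10 members, all of which passed the filter, was past the thresholds of a 1.5-fold change and an adjusted p under 0.05 in the edgeR fit on condition alone, in which 1.16% of all genes tested were higher and 0% lower in the IGF2BP3 IP. With the replicate number as a block, *ABHD2* alone of the members was past both thresholds (log2 fold change 0.75, SE 0.09), where 3.56% of all genes were called higher and 0.103% lower. DESeq2 on condition alone also put *ABHD2*, and no other member, past them, where 2.22% of the 12640 genes with an adjusted p were called higher and 0% lower. The groups did not overlap upwards in CPM for 1 member, *ABHD2*, against 12.0% of all genes tested, and downwards for 2 members, *ABHD3* and *ABHD5*, against 8.69%. Since *ABHD2* was picked on these counts, nothing is read from its place in them.

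**Figure D1:**
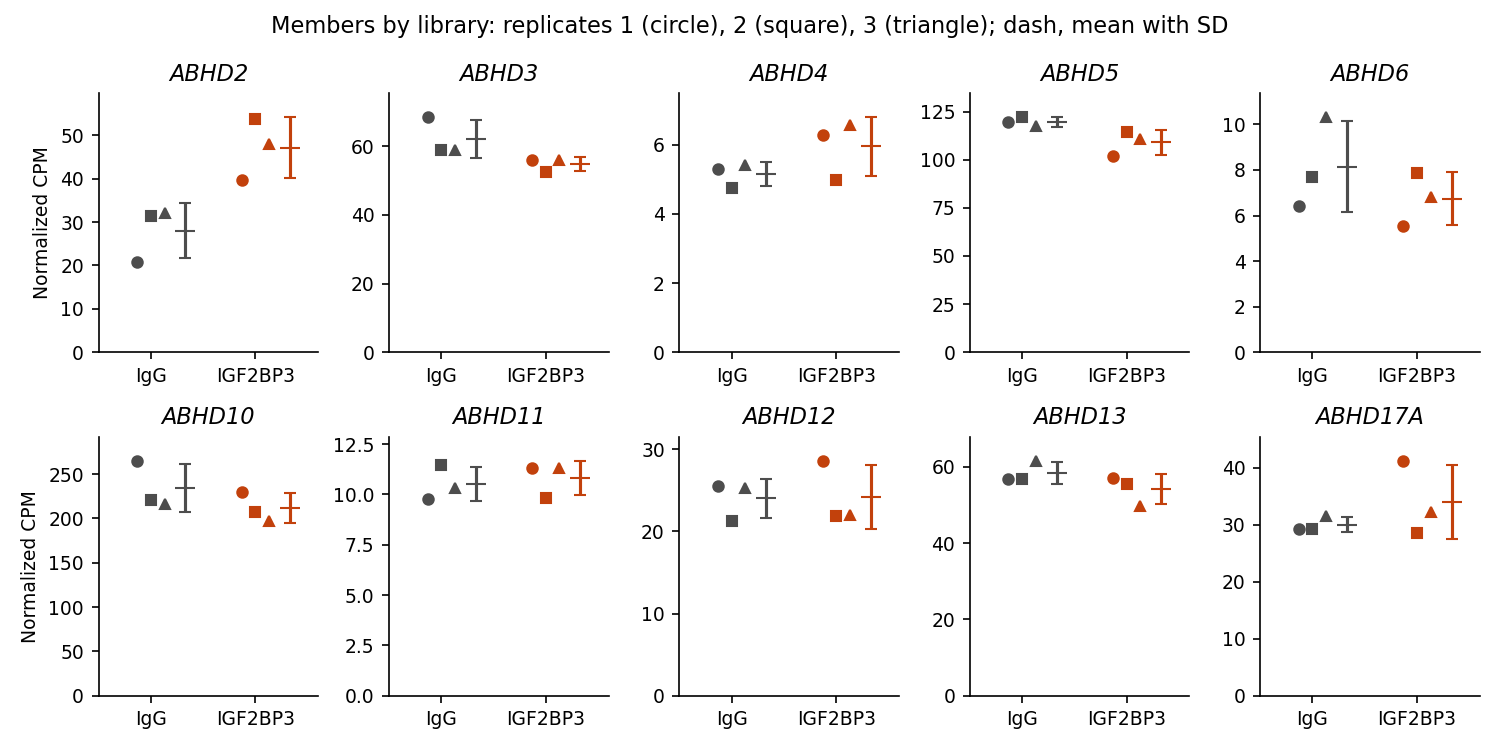
TMM-normalized CPM (vertical axes, each from 0) of the 10 members in the 3 IgG IP libraries (grey) and the 3 IGF2BP3 IP libraries (orange), with the mean and SD of each group. *ABHD2* lies between 39.6 and 53.7 in the IGF2BP3 IP and between 20.7 and 32.1 in the IgG IP, while *ABHD3* and *ABHD5* are lower in every IGF2BP3 IP library and the other members overlap.

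The second set of tables, which hold TPM (transcript abundance per length, scaled to a common sum) as estimated by RSEM, did not separate the groups for *ABHD2*. Its TPM was 5.41, 6.32 and 9.19 in the IgG IP against 7.95, 11.88 and 9.26 in the IGF2BP3 IP, a ratio of means of 1.39. The third IgG IP library exceeded the first IGF2BP3 IP library and came close to the third, so the pairs differed by 0.56, 0.91 and 0.01 on the log2 scale. A fit on log2(TPM + 1), a scale that understates changes of low genes, gave a log2 difference of 0.44 (SE 0.26). A fit on log2(TPM + 0.1), which understates them less, gave 0.49 (SE 0.29). The median of all genes was itself 0.11 and 0.13 above 0 in these fits.

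An implied length in kilobases was computed per gene and library. It is the CPM from the plain library total divided by the FPKM (the deposited per-length value). As it sets the count table against the RSEM tables, it also moves with reads that just 1 of them counts, and it is no measured length. For *ABHD2* it was 3.26, 5.98 and 4.20 in the IgG IP against 5.00, 5.92 and 6.61 in the IGF2BP3 IP. The longest value was thus 2.03 times the shortest, a wider spread than in 98.3% of the 8418 tested genes with at least 100 counts in every library, for which the median was 1.16. *ABHD13*, with 1 annotated transcript of 5313 bases, stayed between 5.00 and 5.07. Most other members varied by 1.08 to 1.21 times, *ABHD4* by 1.55 and *ABHD12* by 1.59. The lowest implied length of *ABHD2* was in IgG IP replicate 1 and the highest in IGF2BP3 IP replicate 3. *ABHD2* has 10 annotated transcripts. Whether the spread came from different transcripts in the IPs or from how the reads were counted was not tested.

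**Figure D2:**
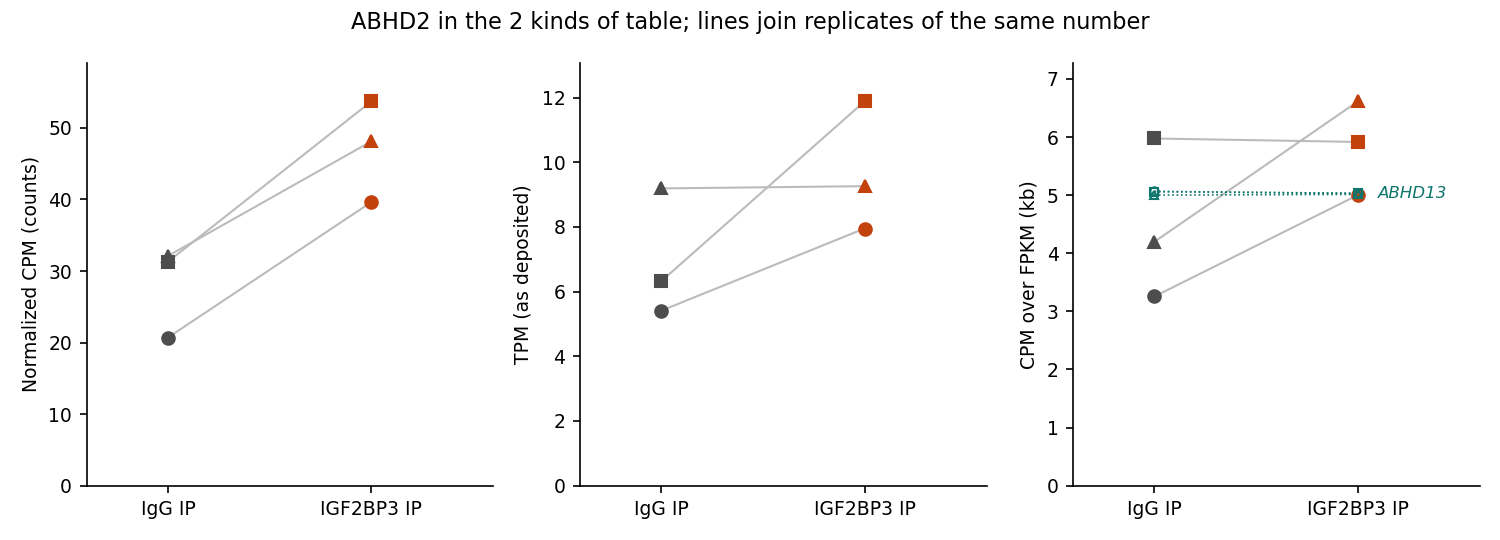
*ABHD2* in each library as normalized CPM, as TPM and as implied length in kilobases (CPM over FPKM), with grey lines joining libraries of the same number and *ABHD13* dotted in the last panel. CPM is higher in the IGF2BP3 IP of all 3 pairs, TPM is nearly level in the third pair (9.19 and 9.26), and the implied length spans 3.26 to 6.61 for *ABHD2* against 5.00 to 5.07 for *ABHD13*.

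*ABHD2* lies at chr15:89087459-89202355 on the plus strand of GRCh38, and its canonical transcript has 11 exons. At 8424 bases this transcript was longer than those of 91.8% of the tested coding genes (median 3487), and its 3′ UTR of 6932 bases was longer than 96.1% (median 1402). Its GC content of 47.1% was close to the median of 47.8%. The tetramer CACA, counted on the transcript strand with overlaps, occurred 50 times or 5.94 times per kilobase, a higher density than in 83.3% of transcripts. The pentamer TGGAC, the core of an m6A consensus, occurred 5 times or 0.594 times per kilobase, denser than in 19.5%. All of these describe the canonical transcript alone. The implied length of 3.26 to 6.61 kilobases was below its 8424 bases, and which transcripts of *ABHD2* the libraries held was not tested.

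Repeats of CA are shown as the kind of sequence that IGF2BP proteins favour, with the longest alternating run of each transcript in capitals. *ABHD2* had the longest run of the members, 9 bases in the 3′ UTR at chr15:89200655-89200663, a length reached by 9.78% of tested coding transcripts. That of *ABHD6*, 8 bases in the 3′ UTR at chr3:58294544-58294551 and on the plus strand too, was reached by 17.29%. *ABHD17A* had the shortest, 4 bases in its coding sequence at chr19:1881313-1881316 on the minus strand. Outside the members, *ABHD18* had a run of 10 bases and a log2 fold change of -0.11. The shares above were taken over transcripts of all lengths (median 3487 bases), and the transcript of *ABHD2* has 8424 bases. A match of letters is not a binding site.
ABHD2: atgacgctgtACACACACAaaaaaatggt
ABHD6: gactcaggttcCACACACAagcaacaactc
ABHD17A: cagcgcgagctggACACcatcgaggtcttc

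The other 9 members had log2 fold changes between -0.28 and 0.21. The 95% interval lay within a 1.5-fold change in both directions for 7 members and reached it for 3, namely *ABHD2*, *ABHD4* and *ABHD6*. The median of the 10 members was -0.05, with 5 values above and 5 below 0, and the median of all genes tested was -0.01. Without replicate 1 of both groups the log2 fold changes of the 9 were -0.12 for *ABHD3*, 0.19 for *ABHD4*, -0.09 for *ABHD5*, -0.28 for *ABHD6*, -0.11 for *ABHD10*, -0.05 for *ABHD11*, -0.08 for *ABHD12*, -0.16 for *ABHD13* and 0.0031 for *ABHD17A*, so that *ABHD11* and *ABHD12* were then below 0.

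**Figure D3:**
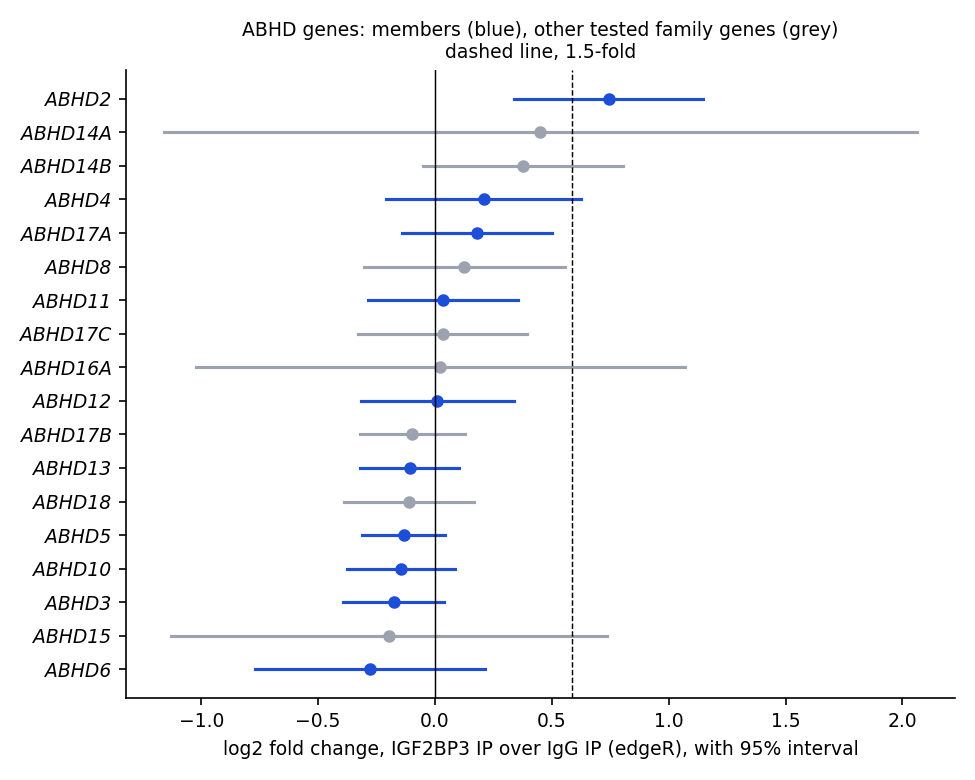
Log2 fold change of the IGF2BP3 IP over the IgG IP (horizontal axis, edgeR, bars are 95% intervals) for the 10 members (blue) and the 8 other family genes that passed the filter (grey). *ABHD2* at 0.74 is the highest value, and the interval of every other gene includes 0.

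*ABHD6* encodes the other endocannabinoid hydrolase among the members, a membrane enzyme of neurons. Its CPM was 6.40, 7.71 and 10.3 in the IgG IP against 5.54, 7.86 and 6.83 in the IGF2BP3 IP. The IGF2BP3 IP values lay inside or below the range of the IgG IP, with replicate 1 lowest in each group. This gave a log2 fold change of -0.28 (SE 0.22, 95% interval -0.77 to 0.22), from 59 to 128 counts per library, so that a decrease of 1.5-fold lay within the error at this depth. Without IgG IP replicate 3, the highest library, it was -0.07.

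*ABHD4*, whose enzyme removes fatty acids from N-acyl phospholipids on the way to N-acylethanolamines, was the member with the fewest counts, 49 to 81 per library. Its CPM was 5.31, 4.76 and 5.40 in the IgG IP against 6.30, 4.99 and 6.58 in the IGF2BP3 IP. Each IGF2BP3 IP library was above the IgG IP library of the same number, but the groups overlapped through replicate 2. The log2 fold change was 0.21 (SE 0.18, 95% interval -0.21 to 0.63).

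*ABHD12* encodes the lysophosphatidylserine lipase that is mutated in the neurodegenerative disorder PHARC. Its CPM was 25.6, 21.2 and 25.2 in the IgG IP against 28.6, 21.8 and 22.0 in the IGF2BP3 IP, and the groups overlapped. This gave a log2 fold change of 0.01 (SE 0.15, 95% interval -0.32 to 0.34). Its TPM was 9.66, 15.44 and 21.37 in the IgG IP against 17.57, 19.03 and 17.45 in the IGF2BP3 IP, which overlapped. In the fits on TPM its log2 difference was 0.27 and 0.29, where the median of all genes was 0.11 and 0.13. The gene overlaps *PYGB* on the other strand, which had 85 to 191 counts and a log2 fold change of 0.38.

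*ABHD3* encodes a phospholipase of phosphatidylcholines with unusual acyl chains. Its CPM was 68.5, 58.8 and 58.9 in the IgG IP against 56.1, 52.4 and 55.9 in the IGF2BP3 IP. Every IGF2BP3 IP library was below every IgG IP library, by a small margin apart from IgG IP replicate 1. The log2 fold change was -0.18 (SE 0.10, 95% interval -0.39 to 0.04), and without IgG IP replicate 1 it was -0.10. In TPM, *ABHD3* read 33.47, 38.09 and 37.81 in the IgG IP against 29.38, 40.01 and 41.27 in the IGF2BP3 IP, which overlapped.

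*ABHD5* encodes the coactivator of the triglyceride lipase PNPLA2 and is mutated in the lipid storage disorder Chanarin-Dorfman syndrome. Its CPM was 119, 122 and 117 in the IgG IP against 102, 115 and 111 in the IGF2BP3 IP. The IGF2BP3 IP values were all lower, and the log2 fold change was -0.13 (SE 0.08, 95% interval -0.31 to 0.04). Its TPM was higher in the IGF2BP3 IP of all 3 pairs, with 38.86, 53.82 and 50.91 in the IgG IP against 39.61, 59.05 and 55.73 in the IGF2BP3 IP. In both fits on TPM its log2 difference was 0.10, below the median of all genes there (0.11 and 0.13). *ABHD5* overlaps *ANO10* on the other strand, which had 68 to 143 counts against 1102 to 1824 for *ABHD5*.

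The mitochondrial enzymes ABHD10, which takes palmitate off the peroxidase PRDX5, and ABHD11, which protects the lipoyl group of the 2-oxoglutarate dehydrogenase complex, were at very different levels. *ABHD10* had CPM values of 265, 221 and 217 in the IgG IP against 230, 208 and 197 in the IGF2BP3 IP. Its IGF2BP3 IP value was lower in all 3 pairs, the groups overlapped through replicate 1, and the log2 fold change was -0.15 (SE 0.10, 95% interval -0.38 to 0.09). Without IgG IP replicate 1 it was -0.05. The TPM of *ABHD10* was higher in the IGF2BP3 IP of all 3 pairs. It read 107.14, 136.49 and 123.57 in the IgG IP against 116.32, 136.89 and 126.28 in the IGF2BP3 IP. In both fits on TPM its log2 difference was 0.05, below the median of all genes there (0.11 and 0.13). *ABHD11* had CPM values of 9.76, 11.5 and 10.3 in the IgG IP against 11.3, 9.82 and 11.3 in the IGF2BP3 IP. These values overlapped throughout, with a log2 fold change of 0.04 (SE 0.14, 95% interval -0.29 to 0.36).

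*ABHD17A*, for a depalmitoylase of N-Ras and synaptic scaffold proteins, read 29.3, 29.4 and 31.5 CPM in the IgG IP against 41.3, 28.6 and 32.3 CPM in the IGF2BP3 IP. IGF2BP3 IP replicate 1 stood well above the other 5 libraries, and the log2 fold change was 0.18 (SE 0.14, 95% interval -0.14 to 0.50). Without that library it was 0.02. In TPM it was the 1 member whose groups did not overlap upwards, against 9.64% of all genes tested, with 14.28, 19.29 and 18.95 in the IgG IP against 23.66, 19.98 and 21.55 in the IGF2BP3 IP. Its transcript was the richest in GC of the members, at 68.6%, above 99.3% of coding transcripts, and with the fold changes corrected for GC content its log2 value was -0.09. The 8 annotated *ABHD17A* pseudogenes summed to 0 to 6 counts per library.

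*ABHD13*, for a membrane hydrolase of which little is known, read 56.8, 56.7 and 61.6 CPM in the IgG IP against 57.1, 55.5 and 49.8 CPM in the IGF2BP3 IP. Only IGF2BP3 IP replicate 3 was clearly below the rest, and the log2 fold change was -0.11 (SE 0.09, 95% interval -0.32 to 0.10). At 34.0%, the GC content of its transcript was among the lowest, above 0.6% of coding transcripts, and corrected for GC the value was 0.04. Over the 10 members the CACA density ran from 0.586 per kilobase in *ABHD17A* to 7.05 in *ABHD11*, above that of *ABHD2*.

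Per length, the members spanned a 50.4-fold range of levels. In the IgG IP the mean TPM was 122 ± 14.7 (SD, n = 3) for *ABHD10*, 47.9 ± 7.93 for *ABHD5* and 36.5 ± 2.59 for *ABHD3*. It was 17.5 ± 2.80 for *ABHD17A*, 15.5 ± 5.86 for *ABHD12*, 12.6 ± 2.74 for *ABHD13* and 10.6 ± 2.87 for *ABHD11*. *ABHD2* came eighth with 6.97 ± 1.97, before *ABHD6* with 4.49 ± 1.88 and *ABHD4* with 2.43 ± 0.543. The 3 steps from *ABHD10* down to *ABHD17A* were without overlap between neighbours, and the other 6 of 9 steps were within the spread of the libraries. The IGF2BP3 IP means were 9.70 ± 2.0 for *ABHD2*, 126 ± 10.3 for *ABHD10* and 2.78 ± 0.920 for *ABHD4*. In the IgG IP, replicate 1 had the lowest TPM for all 10 members, and in the IGF2BP3 IP for 8 of them.

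**Figure D4:**
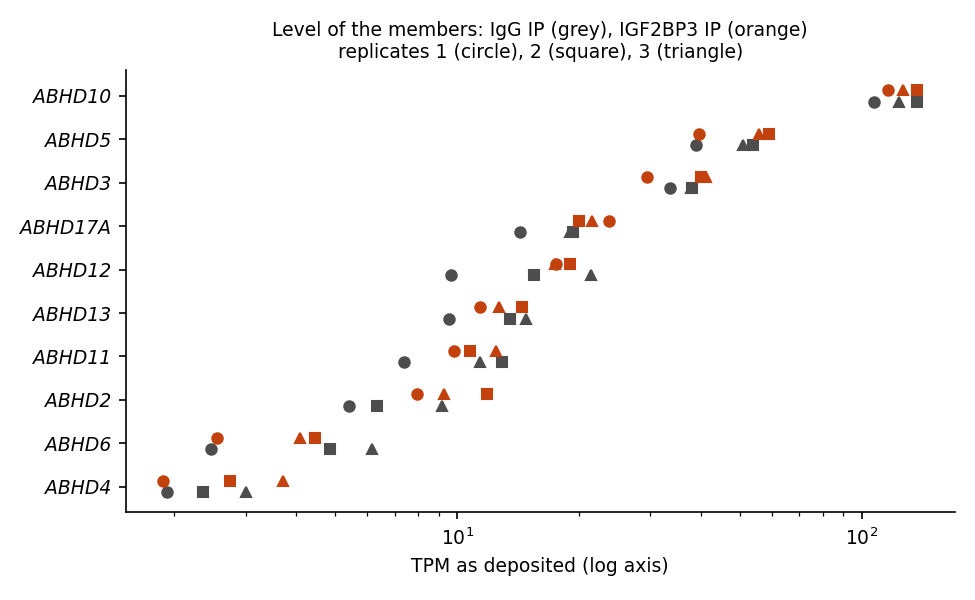
TPM of each member in each library (horizontal log axis, IgG IP grey, IGF2BP3 IP orange), ordered by the mean of the IgG IP. *ABHD10* lies highest, at 107 and above in all libraries, *ABHD4* lowest, and the groups of *ABHD2* overlap between 7.95 and 9.19.

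A further 11 ABHD genes are in the count table, and 8 passed the filter. None was past the thresholds in edgeR (1.16% of all genes higher), none had an unadjusted p under 0.05, and DESeq2 called 0 as well. Their median log2 fold change was 0.03, with 5 above and 3 below 0. The values were 0.45 for *ABHD14A*, 0.38 for *ABHD14B*, 0.13 for *ABHD8*, 0.03 for *ABHD17C*, 0.02 for *ABHD16A*, -0.10 for *ABHD17B*, -0.11 for *ABHD18* and -0.20 for *ABHD15*. *ABHD17B* and *ABHD17C*, for the closest relatives of ABHD17A, thus differed little from 0, with SEs of 0.10 and 0.16.

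*ABHD14B*, for a cytosolic protein, read 4.02, 4.30 and 5.97 TPM in the IgG IP against 6.28, 6.96 and 6.69 TPM in the IGF2BP3 IP, and these groups did not overlap, as for 9.64% of all genes tested. In counts its log2 fold change had an SE of 0.19, and the CPM of the third pair was nearly equal, 6.13 and 6.10. *ABHD14A* overlaps *ABHD14B* on the other strand and had only 2 to 24 counts, with an SE of 0.71. Its TPM of 4.80, 2.39 and 2.89 in the IgG IP against 10.30, 5.66 and 6.03 in the IGF2BP3 IP did not overlap either. *ABHD16A*, for the lipase that makes lysophosphatidylserine, had 13 to 29 counts, and its implied length of 0.105 to 0.241 kilobases was far below the 1977 bases of its transcript, so its count is lower than its TPM would give. *ABHD1* had 0 to 2 counts, *ABHD12B* 0 and *ABHD16B* 2 to 11, and these 3 did not pass the filter.

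The genes around the members, 78 in 6 lists, included 63 that passed the filter. None was past the thresholds in the edgeR fit on condition, 13 had an unadjusted p under 0.05 (1859 of 14507 over all genes), DESeq2 called 0, and 3 were called with the replicate block, *DAGLA*, *PNPLA6* and *ZDHHC8*. Of all genes, 3.56% were called higher with the block and 2.22% by DESeq2. The log2 fold change was positive for 39 of the 63, against 7091 of the 14507 genes tested, whose median was -0.01. No list was tested as a set.

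In the endocannabinoid list 6 of 10 tested genes were above 0, with a median of 0.03. *DAGLA*, for the lipase that makes the substrate of ABHD2 and ABHD6, had the highest value of this list. It read 1.63, 3.08 and 4.27 CPM in the IgG IP against 4.87, 7.02 and 7.48 CPM in the IGF2BP3 IP, groups that did not overlap. Its log2 fold change was 1.08 (SE 0.32, edgeR adjusted p = 0.176), with an adjusted p of 4.1e-04 under the replicate block. The lowest value was -0.41 (SE 0.16, edgeR adjusted p = 0.318) for *GDPD1*, a lysophospholipase D. *CNR1*, for the main cannabinoid receptor of the nervous system, was abundant with 3619 to 4856 counts per library and had a log2 fold change of -0.03. *MGLL*, for the principal monoacylglycerol lipase, had 18 to 50 counts and a log2 fold change of 0.15. *CNR1* and *MGLL* were named for their roles, after their values were seen.

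Among lysophospholipid and phosphatidylserine genes, which include those for substrates of ABHD12, 7 of 7 tested genes were above 0, against 7091 of 14507 over all genes tested. The median of the list was 0.48, and 0 passed both thresholds. *PNPLA6*, for a lysophospholipase mutated in a hereditary spastic paraplegia, was highest at 0.64 (SE 0.19, edgeR adjusted p = 0.181, and 0.0212 with the replicate block), and *PNPLA7* lowest at 0.05. *PTDSS1*, for a phosphatidylserine synthase, read 80.3, 82.3 and 83.2 CPM in the IgG IP against 114, 116 and 113 CPM in the IGF2BP3 IP. Its log2 fold change of 0.48 (SE 0.07, edgeR adjusted p = 0.0213) was below the minimum of 1.5-fold. *PTDSS1* lies outside the rule for named genes and was named after its values were seen.

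Of the lipid droplet genes, 7 of 8 tested were above 0, against 7091 of 14507 over all genes tested. The median of the list was 0.25, and its values ran from 0.38 for *LIPE*, the hormone-sensitive lipase, to -0.02 for *HILPDA*, an inhibitor of PNPLA2. *PNPLA2*, for the lipase that ABHD5 activates, had a log2 fold change of 0.33 (SE 0.14, edgeR adjusted p = 0.359), and it was named for its link to ABHD5, after its values were seen. Of the 5 depalmitoylation genes, 3 were above 0, with a median of 0.06, from 0.38 for *LYPLA2* to -0.27 for *LYPLAL1*.

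Of 22 tested palmitoyltransferases, 13 were above 0, with a median of 0.05. *ZDHHC8* was highest at 0.80 (SE 0.25, edgeR adjusted p = 0.206, and 0.0283 with the replicate block) from 22 to 70 counts per library, and *ZDHHC11* lowest at -0.33. Of the 11 mitochondrial genes, 3 were above 0 and 8 below, with a median of -0.11. *OGDH*, for a subunit of the complex that ABHD11 protects, was highest at 0.38 (SE 0.10, edgeR adjusted p = 0.140), and *LIAS*, for the lipoyl synthase, lowest at -0.47 (SE 0.19, edgeR adjusted p = 0.346). *PRDX5*, the substrate of ABHD10, had a log2 fold change of -0.19 (SE 0.09) and was named for that link, after its values were seen.

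The genes whose CPM ran most like that of *ABHD2* over the 6 libraries were found by the root mean square difference of log2 CPM, centred per gene, among 8944 tested genes with a mean of at least 10 CPM. *NECTIN1*, for a cell adhesion molecule, was nearest with a difference of 0.0364, and it read 8.89, 12.8 and 13.1 CPM in the IgG IP against 17.0, 22.6 and 21.0 CPM in the IGF2BP3 IP. Like *ABHD2*, it was lowest in the replicate 1 library of each group, which a search for likeness over the same libraries favours. Next came *KPNA6*, for a nuclear import adaptor (0.0571), *BSN*, for a presynaptic scaffold (0.0598), *LINC02600*, a long non-coding RNA (0.064), and *SREBF2*, for a regulator of cholesterol synthesis (0.0644). Their log2 fold changes were 0.79 for *NECTIN1*, 0.71 for *KPNA6*, 0.73 for *BSN*, 0.73 for *LINC02600* and 0.80 for *SREBF2*. The likeness was measured over libraries that include the contrast on which *ABHD2* was selected, and a step between the IPs is shared by all of them.

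**Figure D5:**
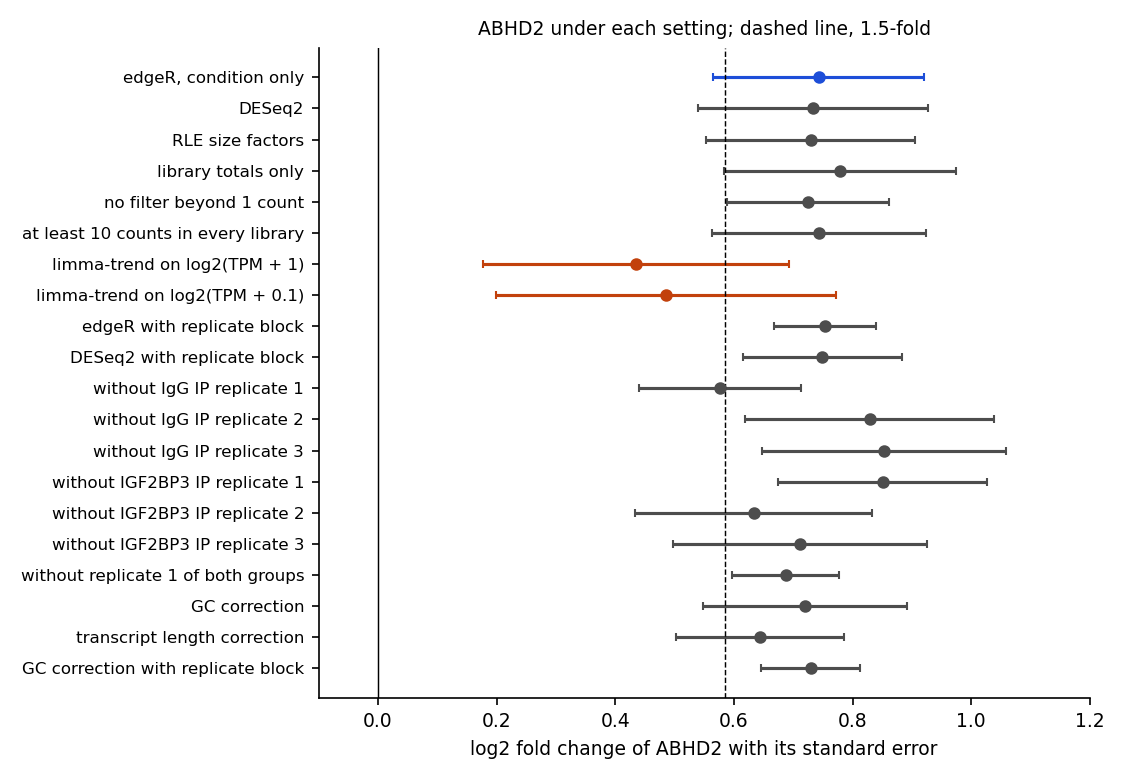
Log2 fold change of *ABHD2* with its standard error under the reported fit (blue) and 19 other settings (grey, with the fits on TPM in orange), and the 1.5-fold minimum as a dashed line. All values are above 0, from 0.44 on log2(TPM + 1) to 0.85 without IgG IP replicate 3, and only the fits on TPM and the one without IgG IP replicate 1 (0.58) fall below the dashed line.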

How the data were processed

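WaGa lysates underwent RIP with an IGF2BP3 or an IgG antibody, and the RNA was sequenced as paired ends. According to the study's methods, the authors aligned reads with STAR 2.7.9a to GRCh38 and quantified them with RSEM and GENCODE 37. They compared the IPs with DESeq2, which is an alternative fit here. The deposited files hold whole-number counts per gene, and per library the authors' RSEM tables give TPM, FPKM and expected counts. The counting program and strand setting behind the count table are not given in the sources used here, so reads of overlapping genes on opposite strands cannot be told apart. The members and gene lists were chosen with earlier results of these data known.

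Counts of 14507 genes that passed filterByExpr were fitted with edgeR 4.0.16 (TMM, quasi-likelihood, IGF2BP3 IP against IgG IP), in R 4.3.3, with Benjamini-Hochberg adjustment over all of them. Calls needed a 1.5-fold change and an adjusted p under 0.05. Some of the fits were run on simulated data with a fixed dispersion and no replicate effect. This cannot show how the replicate 1 libraries affect the calls. Alternatives used DESeq2 1.42.0, limma 3.58.1, other size factors and filters, a replicate block, libraries left out and, chosen after seeing the data, corrections for GC content and transcript length and the removal of replicate 1 from both groups. Libraries with the same number deviated together (r = 0.568, 0.277 and 0.231), which is the basis for the block. Libraries 2 and 3 correlated as much across numbers (r = 0.269 and 0.277), so these values set only number 1 apart and do not show 3 pairs. The labels do not say what a number shares.

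Named genes were all ABHD genes, the called or else the highest and lowest gene of each list, and the 5 genes most like *ABHD2*. *CNR1*, *MGLL*, *PNPLA2*, *PRDX5* and *PTDSS1* were named outside this rule. Transcript features and coding sequence came from canonical transcripts of GENCODE 44, matched for 14479 of the tested genes. Protein sequences were not analysed here.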

Additional observations from a re-analysis of the deposited data

How the results depend on the processing

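The log2 fold change of *ABHD2* stayed above 0 under all 19 alternatives, which is no test, since *ABHD2* was selected for its higher count in the same libraries. Its fold change ranged from 0.58 to 0.85 on the log2 scale with 1 library left out. The lowest values were in the fits on TPM, at 0.44 on log2(TPM + 1) and 0.49 on log2(TPM + 0.1). The number of members past the thresholds was 0 as reported and 0 to 0 with 1 library left out. It became 1, *ABHD2*, with DESeq2 (2.22% of all genes with an adjusted p called higher), without the expression filter (1.23%), with the replicate block in edgeR (3.56%) and in DESeq2 (2.91%), without replicate 1 of both groups (3.18%), and with the GC correction together with the replicate block (1.9%). The adjusted p of *ABHD2* ranged from 5.7e-07 to 0.92 over these edgeR, DESeq2 and limma fits. Genes of the partner lists past the thresholds numbered 0 as reported, 1 without the expression filter, 3 with the replicate block in edgeR, 1 in DESeq2 with the block, 2 without replicate 1 of both groups and 1 with the GC correction and block. The other ABHD genes stayed at 0 calls under all 19 alternatives. The replicate block changed no other call of a member. The median of the members ranged from -0.11 to -0.02 with 1 library left out and from -0.08 to 0.09 otherwise. Some values near 0 changed sign: *ABHD3*, *ABHD5*, *ABHD10* and *ABHD13* were between 0.0031 and 0.10 in the fits on TPM, where the median of all genes was 0.11 and 0.13 above 0, and with the GC correction *ABHD11* was at -0.14, *ABHD12* at -0.16, *ABHD17A* at -0.09 and *ABHD13* at 0.04. *ABHD12* also changed sign with RLE size factors, to -0.0017. In the fits on TPM *ABHD12* was at 0.27 and 0.29. Over all genes, there were 169 calls of higher genes as reported, 0 without IGF2BP3 IP replicate 2, 7 when IgG IP replicate 3 was left out, 19 for IgG IP replicate 2, 23 for IGF2BP3 IP replicate 3, 134 for IgG IP replicate 1, 244 for IGF2BP3 IP replicate 1, 466 for replicate 1 of both groups, and 517 with the replicate block. For *ABHD4*, with 49 to 81 counts per library, an increase of 1.5-fold was within the error. For *ABHD6*, with 59 to 128 counts, a decrease of 1.5-fold was. The cause of these differences was not tested.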
